A study of Jatropha curcas with 10 samples.

Results

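The inflorescence meristem of Jatropha curcas, an oilseed shrub, was compared between 48 h and 6 h after treatment with GA3 (gibberellic acid), using 4 of the 10 RNA sequencing libraries of the series. At each time there were 2 libraries, numbered 1 and 2, and the comparison was made within number, 48 h library 1 against 6 h library 1 and 48 h library 2 against 6 h library 2. Per the labels, every library came from total RNA of inflorescence meristems of 3-year-old plants from Nujiang in Yunnan, China. Both groups had received GA3, so neither is an untreated control, and the time since treatment, the hour of the day and the age of the meristem cannot be told apart. The labels do not give the dose or mode of the treatment, and they do not say whether numbers 1 and 2 stand for different plants; the p-values therefore speak only of the variation among these libraries, part or all of which can be technical. The remaining libraries (0, 12 and 24 h, 2 each) served to estimate the spread (12 and 24 h) and to show where the same genes lay at times that enter no fitted change from 6 h to 48 h.

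Gibberellins act through a soluble receptor, GID1, which on binding the hormone brings the DELLA repressors to degradation and so frees the transcription factors that DELLA proteins hold back. In plants at large the hormone promotes cell elongation and division and takes part in the floral transition and in the growth of flower organs, and the pathway feeds back on itself, since active gibberellin lowers transcripts of its own synthesis enzymes and raises those of the enzymes that inactivate it. Transcripts that change within hours of a hormone treatment are usually described as the early response, and those that differ days later as a late or settled state. The deposited tables give only gene IDs (JCGZ locus tags and other IDs), and 0 of the 28447 were found in the RefSeq gene table at hand, so the genes below cannot be assigned to these roles. For the same reason the meristem could not be checked against its marker genes, and gene functions are not given here.

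Of the 28447 genes listed, 17369 had a mean of at least 1 RPKM (a read number divided by the length of the gene and by the total of its library) over the 4 libraries of 6 h and 48 h and were tested. Another 4008 lay under that mean and 7070 were at 0 in all 4 libraries. Close to the limit, 163 genes had a mean of 1 to 1.1 RPKM and were tested, and 165 had a mean of 0.9 to 1 RPKM and were not. Reads recovered from the values gave depths of 15934189 and 17922830 at 6 h and 18352425 and 17977534 at 48 h, at which 3 reads of a gene of 1 kb correspond to 0.163 to 0.188 RPKM. Libraries of the same number were alike across the treated times: the number 1 minus number 2 differences correlated between each pair of the 4 treated times with r of 0.54 to 0.70 over genes, whereas those of 0 h correlated with them at -0.32 to -0.15. The standard deviation of that difference over genes was 0.70 at 6 h and 0.75 at 48 h on the log2(RPKM + 1) scale, so the numbers were kept as a block in the test. Gene length went with the same difference in all treated times, with Spearman correlations over genes of -0.57 (12 h) to -0.36 (6 h). The likeness by number is therefore in part shared with a trend by length, and the size of that part was not tested.

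Between 6 h and 48 h, 360 genes rose and 468 fell, 4.77% of the genes tested (limma, Benjamini-Hochberg adjusted p under 0.05 over all 17369 genes, all 8 treated libraries in the fit, library number as a block). The rising genes made up 2.07% and the falling genes 2.69%. The median rise was 1.39 and the median fall -1.31 (log2 of RPKM + 1), against a median of -0.05 over all genes tested. At least 2-fold changes were fitted for 308 of the rising and 374 of the falling genes, at least 4-fold changes for 66 and 97, and at least 8-fold changes for 14 and 34. At least 8-fold changes were thus more often falls, that is, transcripts high at 6 h and low at 48 h. The standard error of a called change was 0.15 to 0.54, with medians of 0.24 for the rising and 0.22 for the falling genes.

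The count rested on the pairing by number. Without the block, the same 8 libraries gave 20 rising and 48 falling genes, and all 68 were among the 828. All 10 libraries without the block gave 53 and 100. Leaving out 6 h library 2, 48 h library 1 or 48 h library 2 lowered the total to 165, 167 and 127 genes. Without 6 h library 1 the total was 718, but only 388 of these were among the 828.

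By a rule that allowed 2 genes in each direction, 4 genes with the largest fitted changes are given in full, and their values at 48 h did not overlap those at 6 h. JCGZ_14173 (2298 coding bases) showed the largest rise. It stood at 5.05 and 15.7 RPKM in the 6 h libraries (185 and 645 reads) and at 329 and 398 RPKM in the 48 h libraries (13883 and 16458 reads). The 48 h values were 65.2-fold and 25.4-fold higher in numbers 1 and 2, a fitted change of 5.18 ± 0.30 (log2, SE; limma adjusted p = 0.000399). Outside the comparison its 0 h values were 396 and 355 RPKM, its 12 h values 6.70 and 9.50 RPKM, and its 24 h values 243 and 281 RPKM. Its low values were therefore those of 6 and 12 h, and its 48 h values lay around those of 0 h.

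JCGZ_01421 (1428 coding bases) had the second largest rise. It went from 26.3 and 22.7 RPKM at 6 h (598 and 580 reads) to 683 and 646 RPKM at 48 h (17905 and 16600 reads). The 2 numbers gave nearly the same size, 26.0-fold and 28.5-fold, for a fitted change of 4.71 ± 0.22 (log2, SE; limma adjusted p = 0.000168). Its values were 725 and 766 RPKM in the 0 h libraries, 72.6 and 61.2 RPKM in the 12 h libraries, and 1029 and 573 RPKM in the 24 h libraries. At 12 h both libraries were above both of 6 h, unlike for JCGZ_14173, and at 24 h the libraries differed more from each other than at any other time.

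JCGZ_08534 (510 coding bases) showed the largest fall. The 6 h libraries had 729 and 559 RPKM of it (5926 and 5115 reads), and the 48 h libraries 5.02 and 2.18 RPKM (47 and 20 reads). The 6 h values were 145-fold and 257-fold higher in numbers 1 and 2, for a fitted change of -7.19 ± 0.38 (log2, SE; limma adjusted p = 0.000399). The 12 h libraries still held 358 and 88.4 RPKM of this transcript, the 24 h libraries 5.95 and 4.01 RPKM, and those of 0 h 7.76 and 5.32 RPKM. The 12 h libraries were far apart, and the lower of them was above every value at 0, 24 and 48 h.

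JCGZ_01274 (387 coding bases) had the second largest fall. It went from 284 and 154 RPKM at 6 h (1753 and 1066 reads) to 0.422 and 1.01 RPKM at 48 h (3 and 7 reads), a fitted change of -6.96 ± 0.32 (log2, SE; limma adjusted p = 0.000168). With so few reads at 48 h the size of the fall depends on the constant added before taking logs, and it was -8.18 with 0.1 and -5.23 with 5 in place of 1 RPKM. The 12 h libraries had 11.02 and 10.01 RPKM, lower than both of 6 h, while those of 24 h had 0.856 and 0.317 RPKM and those of 0 h 1.59 and 1.35 RPKM. Its high values were thus those of 6 h, with the 12 h values in between.

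**Figure D1:**
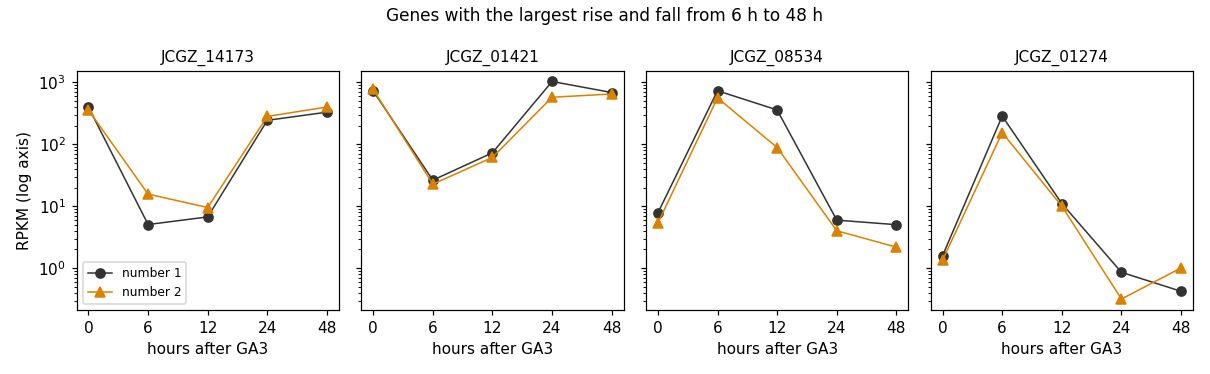
RPKM (log axis) of the 2 genes with the largest rise and the 2 with the largest fall from 6 h to 48 h, in each of the 10 libraries by hours after GA3; circles are number 1 and triangles number 2, and lines join libraries of the same number. JCGZ_14173 and JCGZ_01421 are low at 6 and 12 h, and JCGZ_08534 and JCGZ_01274 are highest at 6 h and within 10 RPKM at 0, 24 and 48 h.

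Each number holds 1 library per time, so a change within a number has no test, and the 2 numbers were set side by side. Over all genes tested, the change from 6 h to 48 h correlated between number 1 and number 2 with Pearson r = 0.58 and Spearman rho = 0.51, and 68.1% of the genes had the same sign. The 2 differences share no library. Genes at least 2-fold higher at 48 h in both numbers were 353 (2.03% of those tested), those at least 2-fold lower in both were 388 (2.23%), and those at least 2-fold in opposite directions were 40 (0.23%). Number 2 moved more: 2358 genes were at least 2-fold apart in number 2 and 1468 in number 1, and the standard deviation of the change over genes was 0.76 against 0.63 (log2). At least 8-fold changes in both numbers were found for 10 genes higher and 28 genes lower at 48 h, and 37 of these 38 were called. A further 18 genes were at least 8-fold higher and 5 at least 8-fold lower in number 2 while moving less than 2-fold in number 1. The reverse held for 1 and 3 genes. Of these 27 genes limma called 0 and voom on the recovered reads called 0, while 7 had an unadjusted p under 0.05 in the limma fit. The choice of the genes favours these counts, and the 37 of 38 above, since disagreement between the numbers adds to the spread in the fit.

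**Figure D2:**
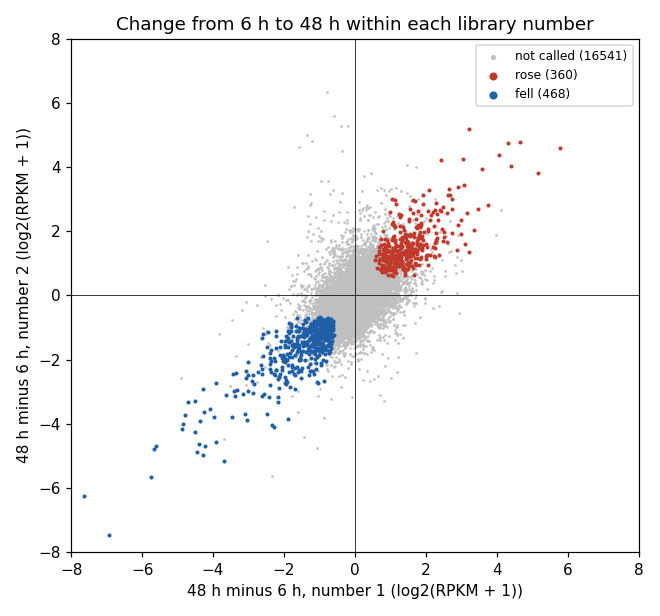
Change from 6 h to 48 h (log2(RPKM + 1), 48 h minus 6 h) of each of the 17369 genes within number 1 (x axis) and within number 2 (y axis); red points are the 360 genes that rose, blue points the 468 that fell and grey points the genes not called. Called genes lie along the diagonal, and grey points high on the y axis near 0 on the x axis are genes that moved in number 2 alone.

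All 360 rising and all 468 falling genes had the called direction in both numbers, which the test itself favours. Values at 48 h did not overlap those at 6 h for 334 of the rising and 462 of the falling genes, against 38.4% of all genes tested. The test favours this as well, since the same libraries gave the calls. The median change was 1.38 in number 1 and 1.39 in number 2 for the rising genes, and -1.20 and -1.42 for the falling genes. The falling genes thus moved somewhat more in number 2, as all genes did.

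The rising genes were of moderate level at 48 h, and the falling genes of moderate level at 6 h. The median rising gene went from 10.8 RPKM at 6 h to 35.8 RPKM at 48 h, and the median falling gene from 36.7 to 12.5 RPKM, whereas the median over all genes tested was 19.2 and 19.3 RPKM. At 100 RPKM or more there were 66 of the 360 rising genes at 48 h and 103 of the 468 falling genes at 6 h. Of all 17369 genes tested, 2146 were at that level at 48 h and 2247 at 6 h. A higher level of the called genes at these times is favoured by their choice. The share of genes called was lowest among those with a mean of 1 to 10 RPKM, where 89 rose and 93 fell of 5443 (1.64% and 1.71%). It was 2.36% and 3.21% of 9744 genes at 10 to 100 RPKM, and 1.88% and 2.84% of 2182 genes at 100 RPKM or more. On the low side, 25 of the rising genes had under 10 reads in a 6 h library and 28 of the falling genes under 10 reads in a 48 h library, so for these the size of the change is poorly fixed.

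The rising genes made up 2.07% and the falling genes 2.69% of the genes tested, and their shares of all reads are set beside this. Because the genes were chosen on the 6 h and 48 h libraries, the direction between these 2 times is set by the choice. The shares of reads are given as a description. The 360 rising genes took 1.06% and 1.19% of all reads in the 6 h libraries and 3.21% and 3.75% in the 48 h libraries. The 468 falling genes took 3.57% and 3.44% at 6 h and 1.22% and 1.05% at 48 h. The reads were spread over many genes: the most abundant rising gene held 3.14% of the reads of its group at 48 h, the top 10 held 22.6%, and 37 genes were needed to reach 50%. Among the falling genes at 6 h the top gene held 8.09%, the top 10 held 25.2%, and 43 genes reached 50%.

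Switching between reads and no reads was rare. Of the 28447 genes listed, 7 had 0 reads in both 48 h libraries and 10 or more in both 6 h libraries, and 0 had the opposite pattern. The 0 depends on the limit of 10 reads, since 1 called rising gene had 0 reads in both 6 h libraries. Of the 7 genes, 3 passed the mean of 1 RPKM, and these 3 were called as falling. The difference between the times was thus mostly one of level among transcripts present at both, as far as this depth shows.

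The 12 h and 24 h libraries enter none of the changes from 6 h to 48 h, although they took part in the estimate of the spread and so in which genes were called. From 12 h to 24 h the median change of the 360 rising genes was 0.74 (log2), with 0.67 in number 1 and 0.81 in number 2, and 275 of them (76.4%) were higher at 24 h. The median change of the 468 falling genes was -0.64, with -0.71 and -0.57, and 414 of them (88.5%) were lower at 24 h. All genes tested had a median of -0.22 over this step and 69.2% of them were lower at 24 h, so the falling genes stand less far from the background than the rising genes, of which 76.4% went up where 30.8% of all genes did. Genes chosen from the 6 h and 48 h libraries alone, with the block, had medians of 0.96 (rising) and -0.61 (falling) over this step. In libraries scaled to the same median, the medians over the step were 0.94 for the genes then called rising and -0.44 for those called falling.

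**Figure D3:**
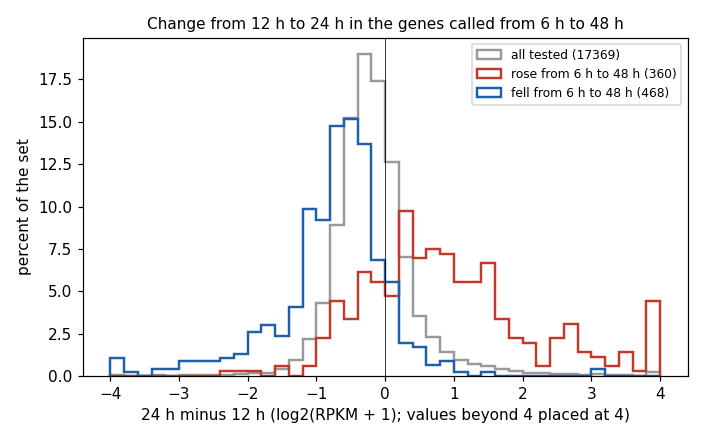
Distribution of the change from 12 h to 24 h (log2(RPKM + 1), 24 h minus 12 h; y axis, percent of each set) for all 17369 genes tested (grey), the 360 that rose (red) and the 468 that fell (blue) from 6 h to 48 h. The red curve is displaced to the right, with a median of 0.74, and the blue curve to the left, with a median of -0.64, of the grey curve with its median of -0.22.

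Tested one by one in the same fit, 499 genes rose from 12 h to 24 h (2.87% of those tested) and 740 fell (4.26%; limma, adjusted p under 0.05). Of these, 151 were also among the genes that rose from 6 h to 48 h, which is 41.9% of the latter and 30.3% of the former. Among the falling genes 155 were shared, 33.1% of those of 6 h to 48 h and 20.9% of those of 12 h to 24 h. Called in opposite directions in the 2 steps were 11 of the 360 rising and 5 of the 468 falling genes. The 2 steps share no library, although they share the library numbers and 1 estimate of the spread. Both steps also end a whole number of days after 0 h, at the same hour of the day. The number of genes called the same way, 306 in all with the block, was 24 without it, and it was 122, 95 and 83 without 6 h library 2 and without numbers 1 and 2 of 48 h, and 86, 95 and 115 without numbers 1 and 2 of 12 h and number 1 of 24 h. When the genes were chosen without 6 h library 1, the share with the same sign over both steps fell from 83.2% to 68.7%, and the median of the rising genes from 0.74 to 0.21. Over all 17369 genes 55.4% had the same sign in both steps, and the 2 changes correlated with Pearson r = 0.33 and Spearman rho = 0.13.

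Whether the change from 6 h to 48 h differed from that of 12 h to 24 h was tested as a contrast added after the results had been seen. It was past the threshold in 33 of 17369 genes (0.19%; limma, adjusted p under 0.05), of which 31 had the lower value for the longer step. Of the 33, 14 were among the falling and 3 among the rising genes of 6 h to 48 h, and 16 had opposite signs in the 2 steps. An unadjusted p under 0.05 was found for 3727 of the 17369 genes, more than the share of 0.05 expected if no gene differed. The 33 genes are therefore no measure of how many genes differed between the steps. Neither is the count of 3727, since the median difference over all genes tested was 0.13 (log2). The part of such a shared shift in these p-values was not tested. For single genes not past the threshold, these libraries do not fix whether the steps differ. Of the 4 genes described above, JCGZ_01274 differed, with -6.96 over the longer step and -2.88 over the shorter one (log2; limma adjusted p of the difference = 0.0310). JCGZ_14173 rose by 5.18 and 4.87, a difference of 0.31 (limma adjusted p = 0.702). JCGZ_01421 rose by 4.71 and 3.51 (limma adjusted p of the difference = 0.116), and JCGZ_08534 changed by -7.19 and -4.92 (limma adjusted p of the difference = 0.106).

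Against 0 h, the changed genes stood apart at 12 h and not at 24 h. By the labels 24 h lies a whole day after 0 h and 12 h does not. If all libraries count from the same start, 24 h thus shares its hour of the day with 0 h. Hour and time since GA3 therefore cannot be told apart. These values use no library of 6 h or 48 h. Both are taken against the same 0 h libraries and are given side by side without a test. At 12 h the rising genes lay at a median of -0.83 (log2) from their 0 h level, with 75.6% of them lower than at 0 h, and the falling genes at 0.54, with 81.4% of them higher. Over all genes tested the median was 0.08, and 57.5% were higher. At 24 h the rising genes lay at -0.21 and the falling genes at -0.14 from 0 h, close to the -0.15 of all genes tested. The shares below 0 h at 24 h were 64.2% and 65.2%, against 66.7% of all genes tested.

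The genes with at least 8-fold changes gave the same order more steeply. For the 14 that rose, the median level was 4.26 and 5.30 RPKM in the 6 h libraries, 5.36 and 5.29 in those of 12 h, 84.9 and 46.6 in those of 24 h, and 63.7 and 71.6 in those of 48 h, against 78.7 and 70.6 before, in those of 0 h. All 14 were higher at 24 h than at 12 h, by a median of 3.48 (log2), and 13 of them were called. Of all genes tested 30.8% were higher at 24 h, and 2.87% were called as rising over this step. For the 34 that fell, the median level was 57.3 and 40.3 RPKM in the 6 h libraries, 17.0 and 12.6 in those of 12 h, 1.85 and 1.49 in those of 24 h, and 1.93 and 1.31 in those of 48 h, against 2.02 and 1.85 in those of 0 h. From 12 h to 24 h 33 of these 34 went down, by a median of -2.47 over all 34, and 29 were called. Of all genes tested 69.2% were lower at 24 h, and 4.26% were called as falling over this step. The median 12 h level of these 34 falling genes was thus between those of 6 h and 24 h, whereas that of these 14 rising genes was near its 6 h level. Single rising genes differed in this: the change from 6 h to 12 h was 1.41 (log2) for JCGZ_01421 and -0.16 for JCGZ_14173. The genes were chosen on their 6 h values, which favours 12 h values less extreme than those of 6 h. The places of 12 h relative to 6 h are therefore given as a description.

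**Figure D4:**
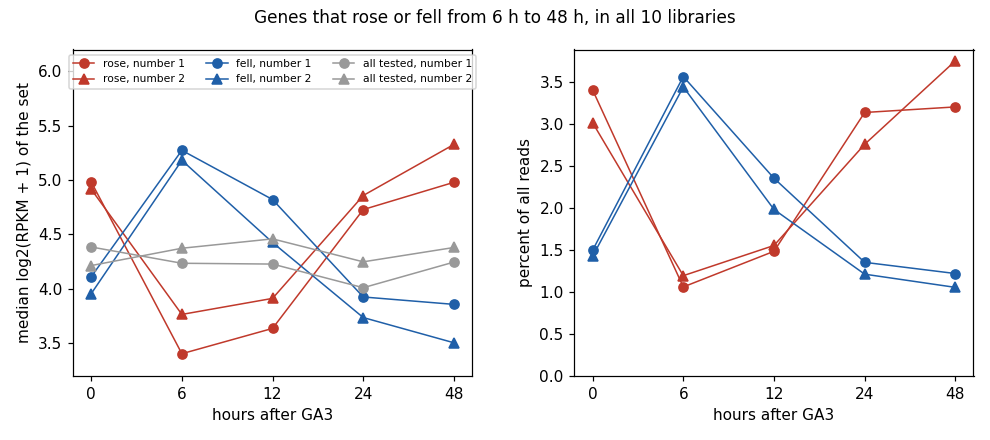
Left, median log2(RPKM + 1) in each of the 10 libraries of the genes that rose (red) and fell (blue) from 6 h to 48 h and of all genes tested (grey), by hours after GA3; right, percent of all reads taken by the rising and the falling genes. Circles are number 1 and triangles number 2. The rising genes take 3.21% and 3.75% of the reads at 48 h and 3.41% and 3.02% at 0 h, and the falling genes 1.22% and 1.05% at 48 h and 1.497% and 1.43% at 0 h.

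As whole groups the falling genes took 2.36% and 1.98% of the reads at 12 h and 1.35% and 1.21% at 24 h, and the rising genes 1.48% and 1.55% at 12 h and 3.14% and 2.76% at 24 h. At 0 h the falling genes took 1.497% and 1.43% and the rising genes 3.41% and 3.02%. In both groups the values of 0, 24 and 48 h lay on one side and those of 6 and 12 h on the other, with no overlap between libraries. The choice of the genes sets the sides of 6 h and 48 h, so only the places of 0, 12 and 24 h are informative. In reads the rising genes, too, were above their 6 h share of 1.06% and 1.19% at 12 h. The falling genes were farther from their 6 h share at 12 h than the rising genes were. A 12 h share less extreme than that of 6 h is favoured by the choice of the genes, and the difference between the groups was not tested.

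The kind of gene ID and the gene length went with the calls. Among the 913 tested genes with IDs other than locus tags, 4 rose (0.438%) and 14 fell (1.53%), against 2.16% and 2.76% of the 16456 locus tags. Falling genes were shorter than rising genes, with median lengths of 828 and 1260 bases, against 1107 over all genes tested. In the second of 10 length classes (median 534 bases) 0.921% of the genes rose and 4.32% fell, and in the seventh (median 1410 bases) 2.99% rose and 1.96% fell. In the class of the longest genes (median 2997 bases) 1.38% rose and 0.864% fell.

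All genes, and not only those called, followed this order by length, and more so in number 2. In the shortest class (median 333 bases) the median change from 6 h to 48 h was -0.11 in number 1 and -0.41 in number 2 (log2), and in the longest class it was 0.11 and 0.37. The Spearman correlation of change with length over genes was 0.16 in number 1 and 0.33 in number 2. After the trend with length had been removed from each library, 428 genes rose and 387 fell, so the direction with more genes turned. The median lengths of the groups were then 1021.5 and 1035 bases, and 314 of the rising and 350 of the falling genes were among those called before. Which of the directions held more genes is therefore not fixed by these data, and the part of the length trend in the calls of single genes was not tested. Among at least 8-fold changes, falls still outnumbered rises after the correction, by 33 to 16.

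**Figure D5:**
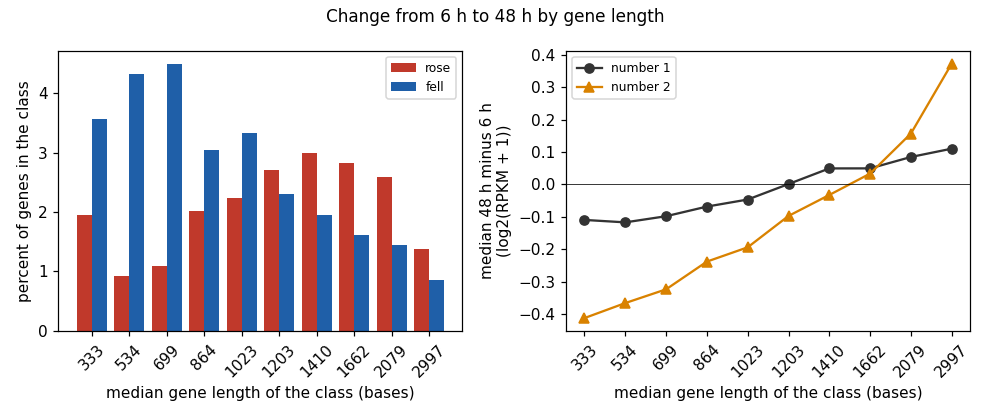
Left, percent of genes that rose (red) or fell (blue) from 6 h to 48 h in 10 classes of gene length (x axis, median length of the class in bases); right, median change from 6 h to 48 h (log2(RPKM + 1)) of all genes in each class, for number 1 (circles) and number 2 (triangles). The medians go from -0.11 to 0.11 in number 1 and from -0.41 to 0.37 in number 2.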

How the data were processed

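RNA from inflorescence meristems was sequenced by the submitters; the tool Bowtie 0.12.2 and the build mm8 (a mouse genome) are named, per the submitters' processing notes, without their roles. Counting tool, annotation and target genome are not stated. Each library has 1 deposited table of gene IDs and values. The unit is not written there. The deposited values were taken here to be RPKM, because 99.9995% of the 203696 values above 0 were within 0.01 of whole reads once multiplied by a gene length and a library total, both inferred from the values. Whether reads or pairs were counted is not given. The JCGZ lengths obtained this way are coding lengths, since 99.9% divide by 3. Depth was 15934189 to 24448219 reads, and read limits cover counting error only. No 2 libraries of a time shared an identical value above 0, and a chi-square over their reads was 57.0 to 169.8 per degree of freedom, above counting noise.

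The main test was limma 3.58.1 (R 4.3.3; eBayes with trend and robust moderation) in the 8 treated libraries on log2(RPKM + 1), with time as a factor and library number as a block, for 17369 genes averaging 1 RPKM or more in the 6 h and 48 h libraries (3 residual degrees of freedom). This scale understates changes of low genes. P-values were adjusted by Benjamini-Hochberg over all genes tested, at 0.05. The numbers were taken to pair the treated libraries because the correlations of their differences were all over 0.1. The rule for named genes took the 2 largest rises and 2 largest falls among called genes with the same direction in both numbers and no overlap. Gene lists by product description and meristem markers could not be run, since the IDs have no names. The comparison, lists and tests were chosen with earlier results of these data known. The scripts were tested on simulated data. Alternatives were the block, the libraries in the fit, pseudocount, filter, moderation, scaling, length correction, voom with TMM scaling on recovered reads, and leaving out libraries; leaving out both 12 h or both 24 h libraries was added after seeing the data.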

Additional observations from a re-analysis of the deposited data

How the results depend on the processing

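The 4 named genes kept their direction and an adjusted p under 0.05 in all 24 alternatives (limma adjusted p up to 0.0127, for JCGZ_14173). Without the replicate block the 828 calls became 68 (20 rose, 48 fell; 24 called the same way from 12 h to 24 h against 306) in the 8 treated libraries. In the 4 libraries of 6 h and 48 h alone, without the block, they became 87 (32 and 55), and in all 10 libraries 153 (53 and 100; 66 the same way). With the block, the 4 libraries alone gave 850 genes, 612 of them among the 828. Without a filter on low values 232 genes rose. Leaving out single libraries gave 127 to 812 genes (44 to 366 rose, 83 to 446 fell), and 83 to 221 called the same way from 12 h to 24 h; a lone library of a time was assumed to vary like the others. Without the 12 h or the 24 h libraries, 598 and 803 genes were called. The count called the same way has no value in the fits to 4 libraries. With the gene set from the fit without the block, the share of reads was 0.0431% (6 h) and 0.490% (48 h) for rising genes, and 0.825% and 0.0855% for falling genes, as fewer genes are summed. The correlation of the 2 numbers was 0.60 at a mean of at least 5 RPKM (0.56 to 0.58 otherwise), and the genes at least 2-fold changed in both numbers were 413 with a pseudocount of 5 and 996 with 0.1, against 741. The medians over the step from 12 h to 24 h kept their sign in every alternative, at 0.21 to 2.99 for rising and -1.77 to -0.44 for falling genes. The causes of these differences were not tested beyond the fewer genes and libraries that an alternative holds.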
